A study of Mus musculus with 32 samples.

Results

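The 10 genes followed belong to the acute phase response: the serum amyloid A genes Saa1, Saa2 and Saa3, the orosomucoid genes Orm1, Orm2 and Orm3, the iron-scavenging lipocalin Lcn2, haptoglobin (Hp), hemopexin (Hpx) and serum amyloid P component (Apcs). They were chosen by name, with earlier results of these data known, and all 10 were found among the 51510 genes of the expression table. RNA was sequenced from 4 tissues of male C57BL/6J mice: liver, brown adipose tissue (BAT), heart and skeletal muscle. In each tissue, 4 libraries came from mice of a Smim30 knockout line, labelled Mut, and 4 from wild-type mice (WT), which gave 8 groups and 32 libraries. The sources used here give neither the age of the mice nor the design of the knockout allele, and no treatment beyond the genotype is named. Smim30 encodes a small membrane protein and is annotated as 2610001J05Rik. Its RNA was detected in both genotypes. It was at 21.1 ± 3.38 TPM in Mut livers and 23.2 ± 3.55 TPM in WT livers, and at 29.5 ± 2.43 TPM in Mut BAT and 28.7 ± 4.25 TPM in WT BAT (SD, n = 4 each), and the groups overlapped in both tissues. Without overlap, it was at 23.6 ± 4.21 TPM in Mut hearts and 34.6 ± 2.08 TPM in WT hearts (adjusted p = 0.320, limma as below), and at 25.9 ± 1.20 TPM in Mut muscles and 34.3 ± 1.20 TPM in WT muscles (adjusted p = 0.224). Ucp1 and Cidea were highest in BAT, Myh6 and Myl2 in heart, Alb and Apoa1 in liver, and Acta1 and Ckm in muscle. TPM, the unit used throughout, scales each library to the same total and corrects for transcript length.

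The acute phase response is the change in plasma proteins that follows infection or injury, and in liver it is driven in hepatocytes mainly by interleukin 6 through STAT3 and by interleukin 1 and tumour necrosis factor through NF-kB, together with C/EBP factors. Its proteins carry lipids, capture iron, hemoglobin or heme, or bind microbes and debris. In the mouse the liver is the main source of most of them, while Saa3 and Lcn2 are also made by macrophages, adipocytes and epithelia, and Hp by adipocytes.

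The serum amyloid A genes lie together on chromosome 7 of the mouse build GRCm38, at chr7:46740497-46742980 on the minus strand (Saa1), chr7:46751790-46754313 on the plus strand (Saa2) and chr7:46711998-46715700 on the minus strand (Saa3). The orosomucoid genes lie together on the plus strand of chromosome 4, at chr4:63344560-63348163 (Orm1), chr4:63356162-63359511 (Orm3) and chr4:63362449-63365878 (Orm2). Lcn2 is at chr2:32384633-32388252, Hp at chr8:109575128-109579172, Hpx at chr7:105591613-105600137 and Apcs at chr1:172893961-172895041, all on the minus strand. All 10 are annotated as protein coding in GENCODE M21.

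Family members are close in sequence, which bears on how reads were divided between them. The coding sequences of Saa1 and Saa2 are 95.1% identical, and those of Saa1 and Saa3 are 74.1% identical. Identity is 89.9% between Orm1 and Orm2, 86.0% between Orm1 and Orm3, and 87.9% between Orm2 and Orm3. Of all 31-base words in its coding sequence, Saa1 shares none with its relatives for 59.8%, Saa2 for 64.9%, Saa3 for 91.1%, Orm1 for 82.9%, Orm2 for 77.0% and Orm3 for 88.1%. The division of reads between Saa1 and Saa2, and between Orm1 and Orm2, is therefore less certain than the family sums. The 60-base stretches below, from GENCODE M21 transcripts, are shown because they tell the paralogs apart. Capitals mark the bases that differ between Saa1 and Saa2, or among the 3 orosomucoid genes, at coding positions 90 to 149 of Saa1 and Saa2, 138 to 197 of Orm1 and Orm2, and 135 to 194 of Orm3.
Saa1: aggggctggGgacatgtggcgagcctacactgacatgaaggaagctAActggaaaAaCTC
Saa2: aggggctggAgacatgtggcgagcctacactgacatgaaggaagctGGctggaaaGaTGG
Orm1: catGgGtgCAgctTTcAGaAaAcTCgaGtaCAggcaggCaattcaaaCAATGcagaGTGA
Orm2: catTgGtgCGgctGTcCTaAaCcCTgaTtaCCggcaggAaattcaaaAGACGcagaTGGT
Orm3: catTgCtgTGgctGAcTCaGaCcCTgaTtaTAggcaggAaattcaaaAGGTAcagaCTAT

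Promoters are shown for Orm3, Saa3 and Lcn2, which were called in liver, and for Orm2 and Saa2, which were called there once WT 1 was left out. The RefSeq promoter table (build GRCm38.p6, 250 bases before to 50 after each start) holds 8 of the 10 genes, without Orm1 and Hp. The C/EBP-type motif TTNNGNAA, read on both strands, was found in 7 of these 8, all but Apcs, and in 40.7% of all 32851 promoters in the table. In 6 of the 7 a match lay outside annotated exons, and the only match of Lcn2 lay within one. A match describes letters only, and binding was not measured. Apcs held the STAT motif TTCNNNGAA, found in 8.3% of all promoters. The interleukin 6 response element CTGGGAA was matched in Apcs and, within an exon, in Orm3, against 11.1% of all promoters. The stretches below, free of annotated exons, read 5′ to 3′ on the strand of the gene, with the C/EBP-type motifs in capitals. That of Lcn2, within an intron of a longer GENCODE transcript, has 53 bases and no such motif, and the others have 150 bases. They cover chr4:63362299-63362448 on the plus strand (Orm2), chr4:63356008-63356157 on the plus strand (Orm3), chr7:46715701-46715850 on the minus strand (Saa3), chr7:46751640-46751789 on the plus strand (Saa2) and chr2:32387798-32387850 on the minus strand (Lcn2). The first match of Orm2 reads the same on both strands.
Orm2: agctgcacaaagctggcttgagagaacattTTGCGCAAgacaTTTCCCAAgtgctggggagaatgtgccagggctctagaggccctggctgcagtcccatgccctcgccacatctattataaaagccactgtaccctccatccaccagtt
Orm3: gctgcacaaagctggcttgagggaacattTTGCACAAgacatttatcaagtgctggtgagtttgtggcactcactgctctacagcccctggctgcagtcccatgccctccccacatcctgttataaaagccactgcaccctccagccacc
Saa3: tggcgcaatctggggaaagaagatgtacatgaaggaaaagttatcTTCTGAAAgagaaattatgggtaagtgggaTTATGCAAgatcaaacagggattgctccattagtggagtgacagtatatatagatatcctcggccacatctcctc
Saa2: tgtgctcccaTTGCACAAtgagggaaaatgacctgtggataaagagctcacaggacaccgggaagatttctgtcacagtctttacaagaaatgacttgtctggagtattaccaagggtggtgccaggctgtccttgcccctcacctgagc
Lcn2: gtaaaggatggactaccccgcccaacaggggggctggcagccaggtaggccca

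In liver, Orm3, Lcn2 and Saa3 were higher in Mut than in WT, by 3.73, 3.77 and 2.55 times in mean TPM. Each library was compared on the scale of log2(TPM + 1) with limma, which understates the change of genes at low TPM, and p-values were adjusted by Benjamini-Hochberg over all 11994 liver genes tested. All 10 acute phase genes passed the filter of a mean of at least 1 TPM in liver, and 3 of them were called at an adjusted p under 0.05, against 4.16% of all genes tested (453 higher and 46 lower). Under median-ratio scaling the same 3 genes were called, and the split over all genes was 150 higher and 160 lower. These p-values set the difference between the groups against the spread of the libraries within them. The other 7 did not pass, although the groups of Hp did not overlap. The median difference of the 10 genes was 1.09 on the log2 scale, beside 0.10 for all genes tested. Of the 10, 9 had a difference above 0, as did 69% of all genes. The 10 were chosen with earlier results of these data known, so these shares and medians describe them and do not test the list. The number called depended on single libraries. Only Orm3 was called when Mut 1, Mut 2, WT 3 or WT 4 was left out, beside 0.268%, 0.834%, 0.183% and 1.21% of all genes. Without WT 1, 4 of the 10 were called, beside 2.39% of all genes. In whole liver, more cells of a type and more RNA per cell cannot be told apart.

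**Figure D1:**
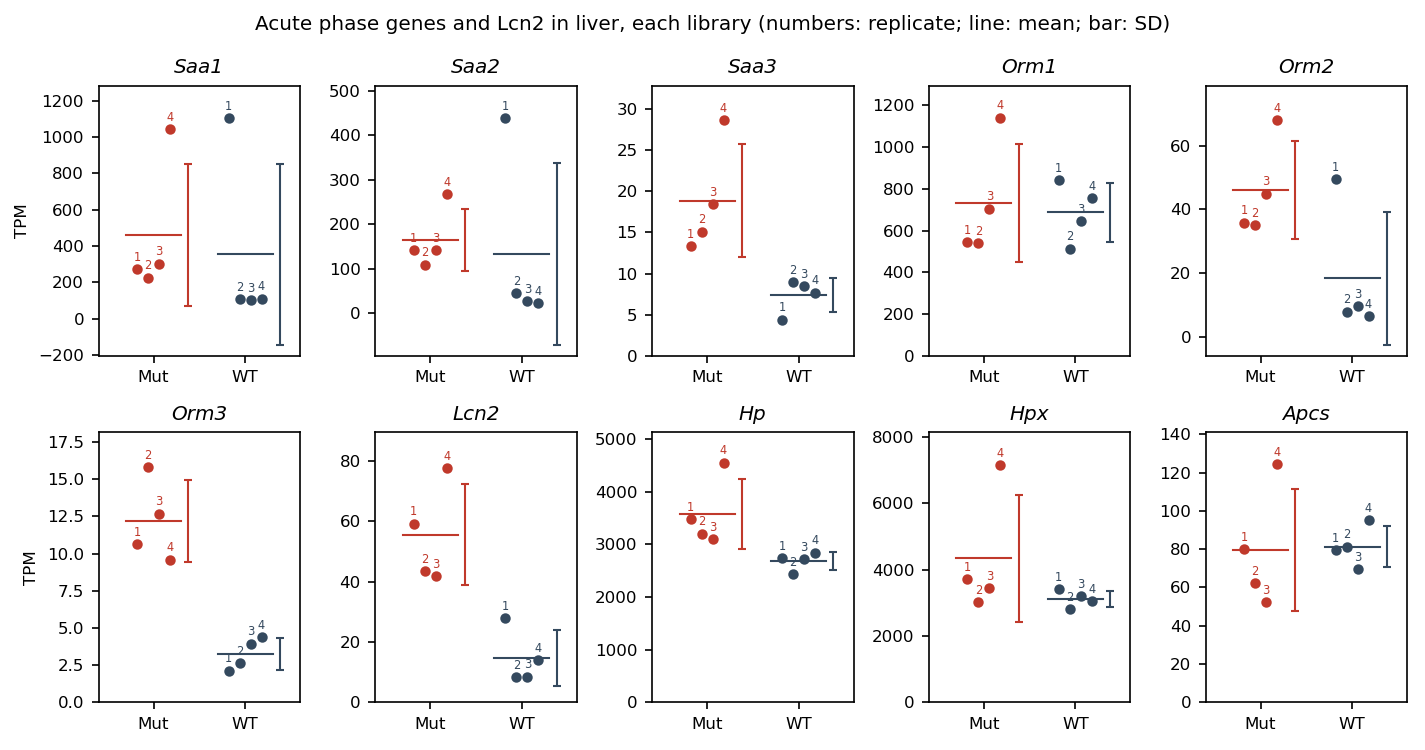
TPM of the 10 genes in each liver library (points numbered by replicate, Mut left of WT), with the group mean as a line and the SD as a bar; axes are linear and differ between panels. Orm3, Lcn2, Saa3 and Hp do not overlap between the groups, and WT 1 stands far above the other WT livers for Saa1, Saa2 and Orm2.

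Serum amyloid A proteins are small apolipoproteins carried on high density lipoprotein. Saa1, a major acute phase protein of mouse liver, was at 270, 226, 302 and 1042 TPM in Mut livers 1 to 4, against 1101, 106, 101 and 111 TPM in WT livers 1 to 4. The 2 highest libraries were thus WT 1 and Mut 4, and the groups overlapped. The log2 difference, 0.96 ± 0.78 (SE), did not pass (adjusted p = 0.459). Saa2, its near-identical neighbour, was at 141, 109, 142 and 267 TPM in Mut livers, against 439, 45.2, 26.7 and 23.3 TPM in WT livers. WT 1 was again the highest of all 8, with every Mut liver above the other 3 WT livers, and the difference of 1.36 ± 0.80 did not pass (adjusted p = 0.310). Saa3, the member of the family that macrophages and adipocytes also make in the mouse, had a different order of libraries. It was at 13.3, 15.1, 18.4 and 28.6 TPM in Mut livers, against 4.41, 8.98, 8.49 and 7.69 TPM in WT livers. All 4 Mut livers were above all 4 WT livers, and WT 1, highest for Saa1 and Saa2, was the lowest for Saa3. Saa3 rose by 1.22 ± 0.25 on the log2 scale (adjusted p = 0.0353). Without Mut 1, Mut 2, Mut 3, WT 1, WT 3 or WT 4 in turn, its adjusted p lay above the threshold, at 0.0528 without WT 1. The ratio of Saa1 to Saa3 TPM was 15.0 to 36.5 in Mut livers, against 249.6 in WT 1 and 11.8 to 14.4 in the other 3 WT livers.

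Orosomucoids, or alpha-1-acid glycoproteins, are plasma carriers of lipophilic compounds. Orm1, the most abundant, was at 546, 542, 705 and 1141 TPM in Mut livers and at 840, 513, 646 and 755 TPM in WT livers. The groups overlapped throughout, and the log2 difference of 0.04 had a 95% interval of -0.50 to 0.59 (adjusted p = 0.929). Its sign changed under median-ratio scaling, to -0.09. Orm2 was at 35.8, 35.2, 45.0 and 68.0 TPM in Mut livers, against 49.6, 8.02, 9.77 and 6.52 TPM in WT livers. Only WT 1 lay within the Mut range, and the difference of 1.71 ± 0.53 did not pass with all 8 libraries (adjusted p = 0.0917). Orm3, the least abundant of the family in liver, was at 10.7, 15.8, 12.7 and 9.60 TPM in Mut livers, against 2.13, 2.64, 3.94 and 4.37 TPM in WT livers. Every Mut liver was above every WT liver, and here WT 1 was the lowest of the 8 and Mut 4 the lowest of the 4 Mut livers. Orm3 rose by 1.64 ± 0.20 (adjusted p = 0.0114), the gene of rank 10 by p-value in liver. It remained called under all 19 alternative settings tried in liver.

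The balance within the orosomucoid family varied between the livers, and its ratios were not tested. The ratio of Orm1 to Orm2 TPM was 15.2, 15.4, 15.7 and 16.8 in Mut livers, against 16.9, 63.9, 66.1 and 116 in WT livers. The 4 Mut livers and WT 1 thus lay close together, and the other 3 WT livers far above them. Of the summed TPM of the family, Orm2 took 5.86% ± 0.20 in Mut livers and 2.36% ± 2.16 in WT livers, and Orm3 took 1.73% ± 0.77 in Mut livers and 0.48% ± 0.16 in WT livers (SD, n = 4 each). Orm1 took 92.4% ± 0.93 in Mut livers and 97.2% ± 2.00 in WT livers. The Saa1 to Saa2 ratio overlapped between the groups, at 1.91 to 3.90 in Mut livers and 2.34 to 4.74 in WT livers.

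Lcn2 encodes lipocalin 2, which binds bacterial siderophores and so withholds iron. It was at 59.2, 43.5, 41.9 and 77.7 TPM in Mut livers, against 28.0, 8.41, 8.58 and 14.0 TPM in WT livers. The groups did not overlap, and WT 1 was the WT liver nearest to the Mut range. Lcn2 rose by 1.96 ± 0.35 on the log2 scale (adjusted p = 0.0250). Most of this RNA was the protein-coding transcript Lcn2-201, with 91.0% of the gene's TPM over the 8 livers. The 3 transcripts annotated with a retained intron summed to 4.25, 3.46, 0.89 and 6.72 TPM in Mut livers, against 0, 0.10, 0.35 and 0.29 TPM in WT livers. They made up 6.47% ± 2.96 of Lcn2 in Mut livers and 1.82% ± 1.70 in WT livers (SD, n = 4 each), and these shares overlapped.

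The 2 scavengers of hemoglobin and heme were the most abundant of the 10 genes. Hp, whose protein binds free hemoglobin, was at 3472, 3202, 3097 and 4548 TPM in Mut livers, against 2733, 2432, 2716 and 2843 TPM in WT livers. The lowest Mut liver was above the highest WT liver, as it was for 14.3% of all genes tested, and the difference of 0.40 ± 0.14 did not pass (adjusted p = 0.118). Hpx, whose protein binds heme, was at 3719, 3028, 3448 and 7159 TPM in Mut livers, against 3407, 2820, 3208 and 3047 TPM in WT livers. Mut 4 stood alone at the top and the other libraries overlapped, with a difference of 0.39 ± 0.24 (adjusted p = 0.337). Apcs, a pentraxin that binds amyloid and debris, was at 80.1, 62.4, 52.3 and 124 TPM in Mut livers, against 79.4, 81.2, 69.4 and 95.1 TPM in WT livers. The groups overlapped, and the difference of -0.10 had a 95% interval of -0.62 to 0.42 (adjusted p = 0.825).

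A single liver of each genotype accounted for much of the spread. WT 1 had 10.4 times the mean of the other 3 WT livers for Saa1, 13.8 times for Saa2, 6.12 times for Orm2 and 2.71 times for Lcn2, but 0.526 times for Saa3 and 0.583 times for Orm3. Mut 4 was the highest of all 8 livers for 7 of the 10 genes and the highest of the 4 Mut livers for 9, with Orm3 as the exception. Leaving out WT 1, the genes called were Lcn2, Orm2, Orm3 and Saa2. With WT 1 and Mut 4 both left out, a setting chosen after the values were seen, 6 genes were called, beside 1.68% of all genes: Lcn2, Orm2, Orm3, Saa1, Saa2 and Saa3. In that fit, Saa1 was higher by 1.31 (adjusted p = 0.0104), Saa2 by 2.06 (adjusted p = 0.0168) and Orm2 by 2.13 (adjusted p = 0.00561). Hp, Hpx, Orm1 and Apcs passed in neither of these 2 fits.

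**Figure D2:**
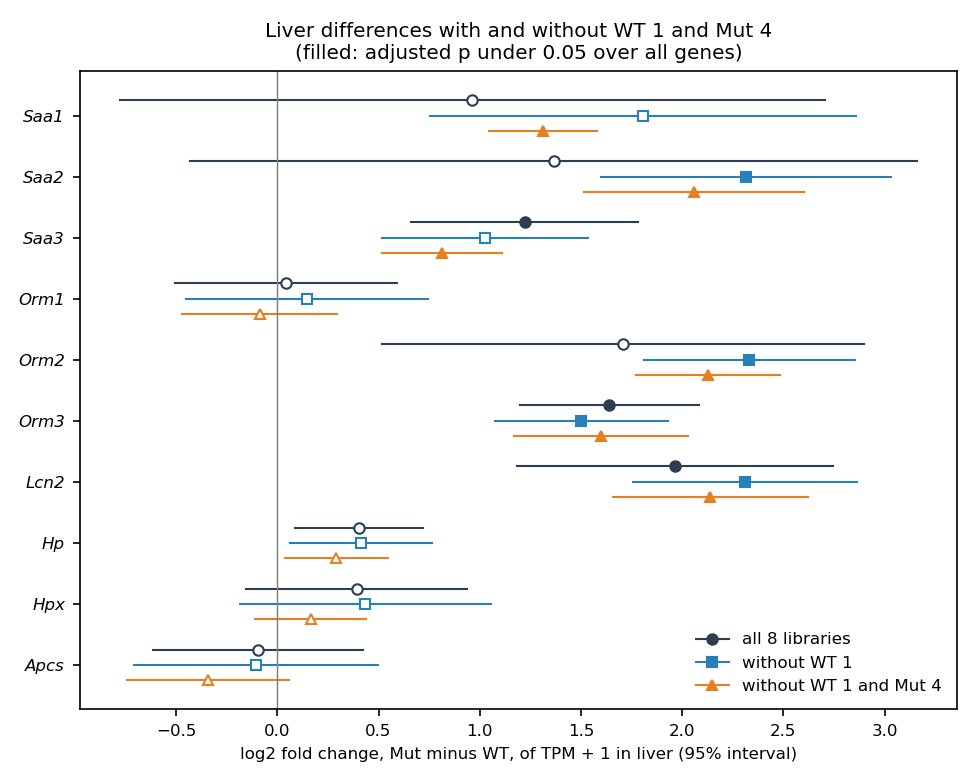
Log2 difference of TPM + 1 (Mut minus WT) in liver for the 10 genes, with 95% intervals, from all 8 libraries, without WT 1, and without WT 1 and Mut 4; filled symbols passed an adjusted p under 0.05 over all genes. Saa1, Saa2 and Orm2 have wide intervals with WT 1 included, while Orm3 and Lcn2 are filled in all 3 fits.

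Markers of several cell types also stood higher in Mut livers. Beside them, 69% of all liver genes tested had a difference above 0. Of all these genes, 4.16% were called and 25.9% had an unadjusted p under 0.05. Under median-ratio scaling the median difference of all genes was -0.02. All 12 macrophage markers had a log2 difference above 0, with a median of 1.05, and Cd68, a lysosomal glycoprotein of macrophages, was called (8.02 ± 2.09 TPM in Mut livers and 3.32 ± 1.54 TPM in WT livers, SD, n = 4 each; adjusted p = 0.0380). Their summed level was 198 to 625 TPM in Mut livers, highest in Mut 4, and 79.2 to 286 TPM in WT livers, lowest in WT 1. Saa3 shared both features with these markers, but not the place of WT 4. In WT 4 the markers summed to 286 TPM, above Mut 1, Mut 2 and Mut 3 (245, 198 and 243 TPM). Saa3 in WT 4, at 7.69 TPM, was below every Mut liver. The part of the macrophage markers in the Saa3 difference was not tested. Neutrophils also store Lcn2. The 12 genes of the neutrophil list summed to 1.10 to 9.25 TPM in Mut livers and 1.17 to 2.22 TPM in WT livers, and their part in the Lcn2 difference was not tested. In that list, 9 of the 12 genes were under 1 TPM in every liver. Among these, Ly6g was at 0 in every WT liver and at most 0.0749 TPM in a Mut liver. The 1 gene of the list that passed the filter in liver had a log2 difference of 0.55 and was not called. In Mut 4, which had the highest sum, 1 of the 12 genes was at 0, while 5 to 9 were at 0 in each other liver. Of 8 fibroblast and stellate markers, all 8 had a difference above 0, and Col1a1, Col1a2 and Col3a1, the fibrillar collagen chains, were called. Erythroid markers summed to 1076 to 4303 TPM in Mut livers and 1234 to 1576 TPM in WT livers, with 6 of 6 tested above 0, none called and 1 at an unadjusted p under 0.05. The 10 hepatocyte markers had a median difference of -0.08, no call and 2 at an unadjusted p under 0.05.

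No further acute phase gene was called in liver. Of 26 further positive acute phase genes, 25 were tested, 14 had a difference above 0, none was called by limma, and the median was 0.03. At an unadjusted p under 0.05 there were 5 of the 25, beside 25.9% of all liver genes. Steap4, a metalloreductase, came closest, at 102.5 ± 34.2 TPM in Mut livers and 59.9 ± 13.5 TPM in WT livers (SD, n = 4 each; adjusted p = 0.0753). Saa4, the constitutive member of the serum amyloid A family, was at 267 ± 67.2 TPM in Mut livers and 184 ± 30.2 TPM in WT livers (adjusted p = 0.121). The fibrinogen chains Fga, Fgb and Fgg had differences of -0.10, -0.11 and -0.20, and Crp, the C-reactive protein, one of 0.05, with none called. Hamp, the iron hormone hepcidin, was at 1187 ± 866 TPM in Mut livers and 2959 ± 1477 TPM in WT livers (adjusted p = 0.178). Among 11 negative acute phase genes, whose products fall in inflammation, 9 had a difference below 0, with a median of -0.19, no call, and 3 at an unadjusted p under 0.05. These included Apoa1, the main apolipoprotein of high density lipoprotein, at 7040 ± 1685 TPM in Mut livers and 11445 ± 1181 TPM in WT livers (adjusted p = 0.0561). Alb and Ttr, the plasma carriers albumin and transthyretin, each had a difference of -0.02.

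Genes of the signalling that drives these proteins gave no call either. Of 28 listed, 24 were tested in liver, 18 had a difference above 0, and the median was 0.11, near that of all genes. At an unadjusted p under 0.05 there were 8 of the 24, 5 of them higher in Mut, beside 25.9% of all liver genes. Stat3, the factor downstream of interleukin 6, was at 38.7 ± 11.9 TPM in Mut livers and 30.9 ± 6.85 TPM in WT livers (SD, n = 4 each; adjusted p = 0.381). Its feedback inhibitor Socs3 was at 1.92, 2.28, 4.35 and 9.45 TPM in Mut livers and 3.04, 2.93, 5.73 and 5.81 TPM in WT livers. Mut 4 was the highest for Socs3, whereas WT 1 was not among the high libraries. Cebpb, which encodes a C/EBP factor, averaged 191 TPM in both genotypes. Of 14 receptors and clearance genes for these proteins, 10 were tested and 1 was called. This was Cd36, a scavenger receptor reported to bind serum amyloid A, at 166 ± 38 TPM in Mut livers and 70.5 ± 16.5 TPM in WT livers (adjusted p = 0.0191). Hmox1, which degrades heme, was at 17.2, 20.3, 12.9 and 51.3 TPM in Mut livers, against 8.04, 8.74, 8.87 and 12.8 TPM in WT livers. Its groups did not overlap, but the difference did not pass (adjusted p = 0.0906).

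Liver was the main site of most of these genes. In WT mice the liver mean was the highest of the 4 tissues for 9 of the 10 genes, and in Mut mice for all 10. The exception was Orm3, at 3.27 ± 1.06 TPM in WT liver and 3.39 ± 1.56 TPM in WT BAT (SD, n = 4 each), with a log2 difference of 0.00 ± 0.23 (adjusted p = 0.995). Over the 6 pairs of tissues in WT, 40 of the 60 comparisons of these genes passed (limma over the 16 WT libraries), beside 71.1% of all genes for liver and BAT, 78% for liver and heart, 78.7% for liver and muscle, 61.7% for BAT and heart, 71.4% for BAT and muscle and 63.2% for muscle and heart. Of those 40, 29 set liver above another tissue. BAT was above heart for Hp (by 4.03 on the log2 scale), Orm1 (2.58), Orm3 (1.88) and Saa3 (0.95), and above muscle for the same 4 genes (3.64, 2.10, 1.77 and 1.08). Muscle was above heart for Hpx (0.40) and Orm1 (0.48) and above BAT for Hpx, whose BAT minus muscle difference was -0.43. Other pairs of tissues, such as BAT and heart for Lcn2, Saa1, Saa2, Orm2, Hpx and Apcs, did not differ beyond the spread of the libraries.

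**Figure D3:**
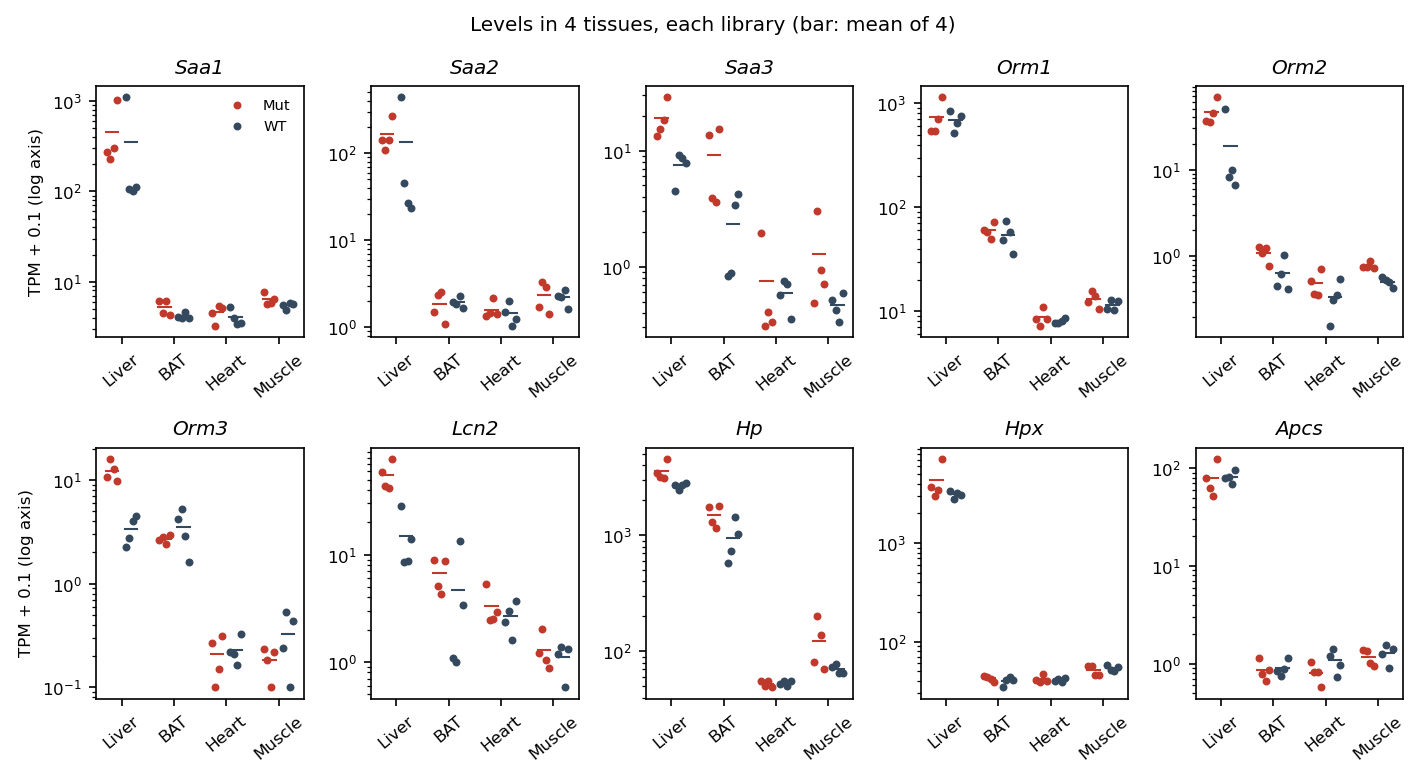
TPM plus 0.1 of each gene on a log axis in liver, BAT, heart and muscle (4 libraries per group, Mut left of WT; bars are means). Saa1, Saa2, Hpx and Apcs are far lower in the 3 other tissues than in liver. In WT, Hpx is slightly higher in muscle than in BAT and heart, while Hp, Saa3, Orm3 and Orm1 are higher in BAT than in heart and muscle.

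Levels outside liver were set beside those of hepatocyte markers, as percentages of the mean over all 8 livers. Hepatocyte markers such as Alb and Apob were not at 0 outside liver: the 10 markers stood at 0.91% to 1.10% of their liver mean in BAT, 0.95% to 1.14% in heart and 1.26% to 1.43% in muscle. Saa1, Hpx and Apcs stood close to these levels, at 1.13%, 1.10% and 0.97% in BAT, 1.03%, 1.10% and 1.05% in heart and 1.43%, 1.40% and 1.40% in muscle. Saa2 did likewise, at 1.21% in BAT, 0.95% in heart and 1.45% in muscle. The source of that shared level was not tested. The levels of Hpx and Apcs outside liver, with the excess of Hpx in muscle, cannot be told apart from it. For Saa1 and Saa2 the percentages depend on the livers used. Their means over all 8 livers, 408 and 149 TPM, were raised by WT 1 and Mut 4. The 3 WT livers other than WT 1 averaged 106 and 31.7 TPM. Set against those 3 livers, the percentages of both genes would be higher, so their place beside the markers is uncertain. The other 6 genes stood above the markers in BAT, Orm2 least (2.37%), with a range over libraries of 0.99% to 3.63%. In heart, Lcn2 (8.22%), Saa3 (4.35%), Hp (1.69%) and Orm3 (1.53%) stood above the markers, Orm1 (1.17%) just above them, and Orm2 (0.97%) within their range. In muscle, Saa3 (5.91%), Lcn2 (3.14%), Hp (3.09%), Orm3 (2.03%), Orm1 (1.72%) and Orm2 (1.69%) stood above them, though Orm3 was at 0 in some libraries of both tissues. Set against livers of the same genotype, BAT held 41.8% ± 8.81 of the liver level of Hp in Mut and 35.0% ± 14.0 in WT (SD, n = 4 each). It held 47.6% ± 32.9 of that of Saa3 in Mut and 30.2% ± 23.6 in WT, and 8.14% ± 1.26 of that of Orm1 in Mut and 7.83% ± 2.34 in WT. For Orm3 it held 21.2% ± 1.71 in Mut and 103.6% ± 47.6 in WT, and for Lcn2 12.0% ± 4.28 in Mut and 31.1% ± 39.6 in WT. The WT value of Lcn2 came largely from BAT WT 3, at 13.2 TPM, where the other WT BAT libraries were at 0.89 to 3.30 TPM.

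**Figure D4:**
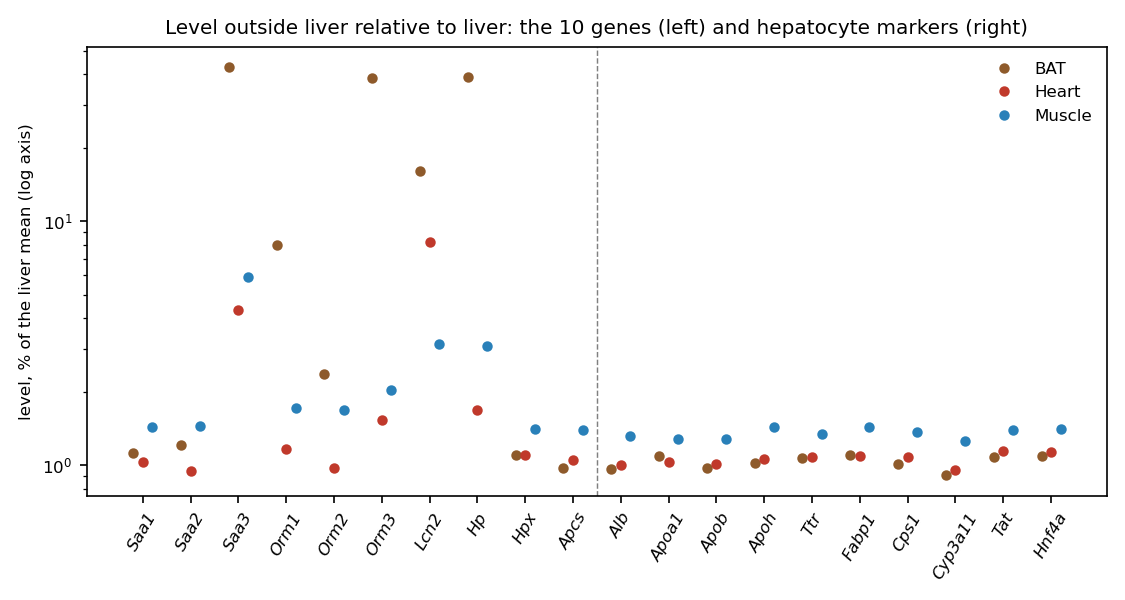
Level of each gene in BAT, heart and muscle as a percentage of its mean over the 8 livers, on a log axis, for the 10 genes (left of the dashed line) and 10 hepatocyte markers (right). The markers lie between 0.91% and 1.43%, and Hp, Saa3 and Orm3 reach 38.7% to 42.7% in BAT when both genotypes are pooled.

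In BAT no gene was called, and the largest differences of these genes, all higher in Mut, were those of Saa3, Lcn2 and Hp. Of the 10 genes, 8 passed the filter (all but Orm2 and Apcs), and 0 were called, as were 0 of the 12150 genes tested (0%). Of the 8, 6 had a difference above 0, as did 8834 of the 12150. At an unadjusted p under 0.05 there were 2369 genes (19.5%), and 2 of the 8 were among them. Hp was at 1747, 1298, 1156 and 1780 TPM in Mut BAT, against 572, 732, 1425 and 1025 TPM in WT BAT. Only WT 3 lay within the Mut range, and the difference was 0.73 ± 0.26 (adjusted p = 0.185). Saa3 was at 13.5, 3.78, 3.48 and 15.2 TPM in Mut BAT, against 0.73, 0.79, 3.28 and 4.14 TPM in WT BAT. It was lowest in WT 1 and WT 2, and the difference was 1.55 ± 0.51 (adjusted p = 0.167). Lcn2 was at 8.80, 5.04, 4.20 and 8.58 TPM in Mut BAT, against 0.99, 0.89, 13.2 and 3.30 TPM in WT BAT. WT 3 was the highest of all 8 and WT 1 and WT 2 the lowest, with a difference of 0.92 ± 0.57 (adjusted p = 0.407). Orm1 and Orm3 overlapped between the groups, at 59.7 ± 9.22 and 2.59 ± 0.21 TPM in Mut BAT and 53.9 ± 16.1 and 3.39 ± 1.56 TPM in WT BAT (SD, n = 4 each). Saa1, Saa2 and Hpx overlapped too, with log2 differences of 0.26 ± 0.12, -0.07 ± 0.17 and 0.08 ± 0.09 (SE).

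Markers of several other cell types stood higher in Mut BAT. For macrophage markers, the summed level was 349 to 457 TPM in the 4 Mut libraries, against 68.4, 108, 366 and 219 TPM in WT 1 to 4. WT 1 and WT 2 were the lowest and WT 3 the highest of the WT libraries, as for Hp and Lcn2. Of 12 markers, 7 were tested, all 7 had a difference above 0 and an unadjusted p under 0.05, and none was called by limma. The Kupffer cell markers Clec4f, Vsig4, Cd5l, Marco and Timd4 were near 0 there. Fibroblast markers summed to 329 to 579 TPM in Mut BAT and 153 to 273 TPM in WT BAT, and erythroid markers to 4094 to 6235 TPM in Mut BAT and 2105 to 3876 TPM in WT BAT. Neither sum overlapped between the groups, and all 6 fibroblast and all 6 erythroid markers tested were higher at an unadjusted p under 0.05, with none called by limma. The 7 adipocyte markers had a median difference of -0.03, 4 of them below 0, and summed to 6054 to 6510 TPM in Mut BAT and 6140 to 6745 TPM in WT BAT. Among these 7, the adipokine leptin, was at 197, 162, 132 and 209 TPM in Mut BAT and 26.5, 43.5, 109 and 85.8 TPM in WT BAT, with WT 1 and WT 2 again the lowest, whereas Cfd, the adipokine adipsin, had a difference of -0.84 (adjusted p = 0.324). The part of these markers in the differences was not tested. Without WT 3, Hp and Lcn2 were called, beside 6.74% of all genes. Without WT 1 and WT 2, a setting chosen after the values were seen, none was called and the Lcn2 difference was -0.08.

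**Figure D5:**
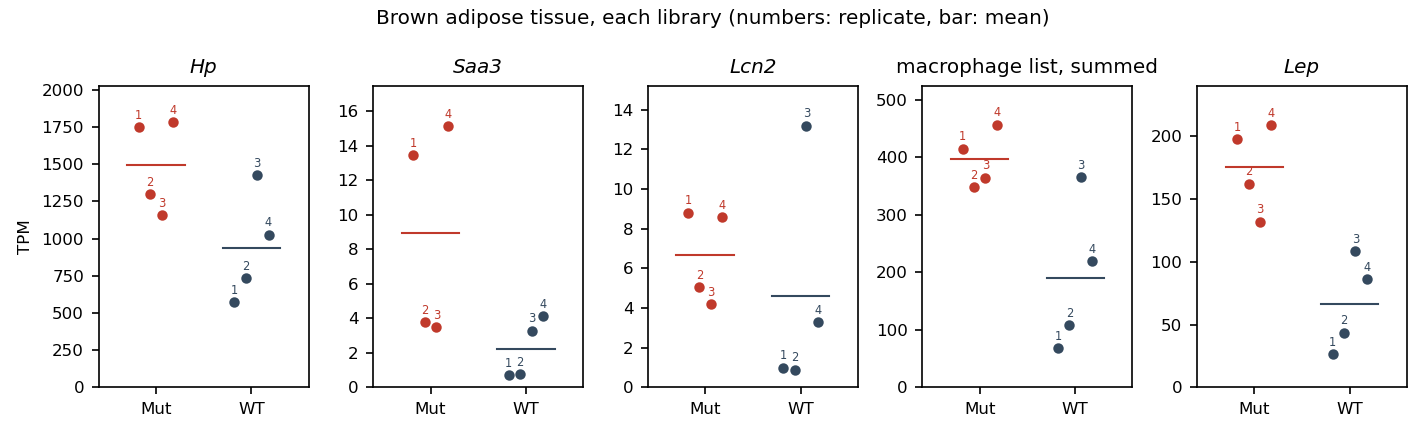
TPM of Hp, Saa3, Lcn2, the summed macrophage list and Lep in each BAT library (points numbered by replicate, lines are means, Mut left of WT; linear axes). WT 1 and WT 2 are the lowest of the 8 libraries in all 5 panels, and WT 3 is the highest WT library in all but Saa3.

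In heart and muscle no difference of these genes passed. In heart 6 of the 10 genes were tested and 0 called by limma, beside 0.15% of all genes, and 0 had an unadjusted p under 0.05, beside 11.6%. Hp was at 48.9 to 55.2 TPM in Mut hearts and 50.04 to 55.7 TPM in WT hearts, a difference of -0.03 with a 95% interval of -0.24 to 0.18 that changed sign with median-ratio scaling (0.10). Mut heart 1 was the highest for both Lcn2 and Saa3, at 5.28 and 1.83 TPM, where the other Mut hearts were at 2.35 to 2.81 and 0.21 to 0.30 TPM. In muscle 7 genes were tested and 0 called, beside 0.0085% of all genes, and Hp alone had an unadjusted p under 0.05, beside 7.76%. Hp was at 81.1, 203, 139 and 69.8 TPM in Mut muscles, against 73.0, 77.8, 65.3 and 65.6 TPM in WT muscles. Mut 2 and Mut 3 were the high libraries, and the difference was 0.67 ± 0.29 (adjusted p = 0.637). The same 2 libraries were highest for Adipoq, the fat cell hormone adiponectin, at 63.9 and 52.6 TPM, against 17.1 and 20.4 TPM in Mut 1 and Mut 4 and 11.8 to 24.4 TPM in WT muscles. The part of fat in these samples in the Hp difference was not tested.

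The tissue by genotype interaction was called for 1 of the 10 genes, Orm3 (adjusted p of the F test 7.40e-05, limma over all 32 libraries), beside 6.03% of the 14367 genes tested. The rise of Orm3 in liver exceeded its difference in BAT by 1.85 ± 0.27 on the log2 scale (adjusted p = 0.000137), in heart by 1.67 ± 0.27 (adjusted p = 0.000338) and in muscle by 1.81 ± 0.27 (adjusted p = 0.000232). These contrasts passed for 3.64%, 6.38% and 1.4% of all genes. Orm3 was at or under 0.44 TPM in every heart and muscle, where it can hardly move on the log2(TPM + 1) scale, so that the contrasts with those tissues largely repeat the liver difference. Orm2 entered this fit through liver alone and was at or under 0.61 TPM in every heart, so the same limit holds for its contrast of liver with heart, 1.55 ± 0.46 (adjusted p = 0.0411), and its F test did not pass (adjusted p = 0.0713). Lcn2 had a larger difference in liver than in heart by 1.74 ± 0.59 (adjusted p = 0.0723) and than in muscle by 1.85 ± 0.59 (adjusted p = 0.124), and its F test did not pass (adjusted p = 0.106). For Saa3 the liver difference minus the BAT difference was -0.33 ± 0.56 (adjusted p = 0.823), so that none was detectable at this spread.

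Genes with the most similar profile were found for each gene as those with the smallest root mean square difference of centred log2 levels over the 8 group means, among 12780 genes, leaving out provisional names. Saa3 was closest to Mpeg1, a macrophage gene (0.37), then to Steap4 (0.38) and Lyplal1 (0.40). Orm3 was closest to Steap4 (0.31), Hsd17b4 (0.31) and Dnaja1 (0.32), all well expressed in BAT too. Lcn2 was closest to Abhd2 (0.41), Pdia4 (0.46) and Spc25 (0.47), and Hp to Aldh1a7 (0.28), Cd1d1 (0.33) and Kng2 (0.35). Genes of nearly pure liver profile had closer neighbours: Hpx was within 0.05 of Mup18, Bhmt and Slco1b2, and Apcs within 0.09 of Faah, Klkb1 and Slc22a30. Saa1 was closest to Dio1 (0.16), Krt8 (0.19) and Ugt3a1 (0.19). Saa2 was closest to Cyp2b9 (0.18), with Saa1 next (0.22) and then A1cf (0.24). Orm1 was closest to Ces1f (0.16), Nipsnap1 (0.17) and Slc27a2 (0.20), and Orm2 to Cyp3a59 (0.24), Rarres1 (0.24) and Ifi27l2b (0.25). With 8 groups, and liver far above the rest for most of these genes, such likeness rests mostly on liver. For Orm3, Hp and Saa3, whose BAT levels were nearer to those of liver, it rests on BAT too.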

How the data were processed

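RNA of 4 tissues from Mut and WT mice was measured by sequencing, and groups and replicate numbers come from the library titles. Per the labels' protocols, the libraries were made from total RNA and are strand-specific. The authors deposited TPM per transcript, made with Salmon per the submitters' processing notes. Which version of Salmon was run, and on which transcript set and build, is not given in the sources used here. Each library summed to 999999.4 to 1000000.3 TPM, so read depth is unknown and no counting interval is given.

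Transcripts were matched, without version numbers, to GENCODE M21 on GRCm38 (136081 of 147493, 92.26%) and TPM was summed per gene. The unmatched rest held at most 0.896% of a library's TPM. Per tissue, genes averaging 1 TPM or more were fitted with limma 3.58.1 (R 4.3.3) on log2(TPM + 1) with a mean-variance trend, for Mut minus WT. Tests were two-sided, with Benjamini-Hochberg adjustment over all genes tested and a call at 0.05. A model over 32 libraries tested the interaction, on genes with that mean in at least 1 tissue. The fit was tested on simulated data. Per the design text, the 4 libraries of a group come from individual mice. Whether the same mice gave several tissues is not stated in the sources used here. The interaction model and the fit of tissue pairs in WT treated all libraries as independent.

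The 10 genes and the other gene lists were chosen with earlier results of these data known. The rule names the 10 genes, up to 4 called genes per list, tissue and direction, the 3 nearest profiles and Smim30. Steap4, Saa4, the fibrinogens, Crp, Hamp, Apoa1, Alb, Ttr, Stat3, Socs3, Cebpb, Hmox1, Ly6g, Lep, Cfd and Adipoq were named after their values were seen. The alternatives were a pseudocount of 0.1, no filter and a filter at 5 TPM, an interaction filter in every tissue, median-ratio scaling, rescaling after mitochondrial genes and the 10 most abundant were left out, no trend, array weights, a replicate block, 1 fit over all libraries, a call at 0.1, and leaving out libraries.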

Additional observations from a re-analysis of the deposited data

Results flagged for a closer look

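A single library lay far from the other 3 of its group in 8 of 68 groups of 4 examined. Chance alone would flag about 1 in 20 among independent groups with a normal spread. The groups examined share libraries across genes, so the count cannot be read against that rate. In liver the flagged libraries were WT 1 for Saa1 (1101 TPM, others 101 to 111), Saa2 (439 TPM, others 23.3 to 45.2) and Orm2 (49.6 TPM, others 6.52 to 9.77), and Mut 4 for Saa1 (1042 TPM, others 226 to 302) and Hpx (7159 TPM, others 3028 to 3719). In heart they were Mut 1 for Lcn2 (5.28 TPM, others 2.35 to 2.81) and Saa3 (1.83 TPM, others 0.21 to 0.30), and Mut 3 for Saa2 (2.04 TPM, others 1.26 to 1.36).

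The effect of genotype on Orm3 differed between liver and BAT, by 1.85 on the log2 scale (limma interaction contrast, adjusted p = 0.000137). The contrasts of liver with heart, 1.67 (adjusted p = 0.000338), and with muscle, 1.81 (adjusted p = 0.000232), largely repeat the liver difference, since Orm3 was at or under 0.44 TPM in every heart and muscle. The same holds for the contrast of liver with heart for Orm2, 1.55 (adjusted p = 0.0411), with Orm2 at or under 0.61 TPM in every heart. In every Mut liver Orm3 was above every WT liver, while for Orm2 WT 1 lay within the Mut range.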

How the results depend on the processing

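The count of the 10 genes called was 3 in liver. It was 1 without a filter on low values (Orm3), 6 without WT 1 and Mut 4, and 1 to 4 when single livers were left out. In BAT it was 0, but 1 in a fit over all libraries (Saa3), and 0 to 2 when libraries were left out. The interaction gave 1, but 0 with genes kept only at 1 TPM in every tissue, a filter that Orm3 does not pass, and 1 to 4 without single libraries. The tissue pairs in WT gave 40, but 25 under that filter and 39 to 42 without single libraries. In heart and muscle the count was 0 under every setting tried. Over all liver genes the count was 499, but 35 without a filter, 310 with median-ratio scaling, 126 with the replicate block, 1902 in a fit over all libraries, 1453 at an adjusted p under 0.1, 22 to 390 without single libraries and 201 without WT 1 and Mut 4. In BAT it was 0, but 4 without a filter, 6 with median-ratio scaling, 648 with array weights, 848 in a fit over all libraries and 819 without WT 3. In heart it was 18 (0 to 166), and in muscle 1 (0 to 8). Median-ratio scaling moved the median log2 difference of all genes from 0.10 to -0.02 in liver, from 0.09 to -0.02 in BAT and from -0.11 to 0.00 in heart.

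Signs changed only for differences that were not called. Orm1 in liver was 0.04, but -0.092 with median-ratio scaling, -0.0072 with array weights, -0.19 to 0.17 without single libraries and -0.088 without WT 1 and Mut 4. Without single libraries, Apcs in liver ranged from -0.33 to 0.078 (-0.34 without WT 1 and Mut 4), Saa2 in BAT from -0.19 to 0.073, Saa2 in heart from -0.0081 to 0.20, Orm1 in heart from -0.0050 to 0.18, Hpx in heart from -0.027 to 0.064, Saa2 in muscle from -0.12 to 0.17 and Lcn2 in muscle from -0.034 to 0.20. Median-ratio scaling gave -0.041 for Hpx in BAT, 0.10 for Hp in heart and -0.028 for Saa2 in muscle. Rescaling gave 0.14 for Hp in heart and -0.0040 for Saa2 in muscle. Array weights gave 0.016 for Saa2 in BAT, -0.039 for Saa2 in heart and -0.0096 for Saa2 in muscle. Without WT 1 and WT 2, BAT differences were 0.21 for Orm3, -0.084 for Lcn2 and -0.0018 for Hpx, where single libraries left out gave -0.46 to -0.033, 0.57 to 1.54 and 0.016 to 0.13. The causes were not tested.

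With the replicate number as a block, the same 3 liver genes were called (adjusted p = 0.0407 for Saa3, 0.0386 for Orm3 and 0.0368 for Lcn2), and 0 in BAT, heart and muscle. Same-numbered Mut and WT libraries did not vary together (correlations of their deviations -0.248 to 0.141), so the numbers were not taken as pairs. Depth cannot be read from TPM.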
